A study of Homo sapiens with 6 samples.

Results

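The cytosolic sensing genes described here are 10 genes of the cGAS-STING arm, which senses DNA, and of the RIG-I arm, which senses RNA. They are MB21D1 (cGAS), IFI16, TREX1, ENPP1, TMEM173 (STING), DDX58 (RIG-I), IFIH1 (MDA5), MAVS, TBK1 and IRF3. They were picked by symbol from a table of 21293 genes, all 10 were rows of that table, and all 10 passed the filter on low values that left 14395 genes to be tested. Their RNA was measured by polyA RNA-seq in H2087-LCC cells, a latency competent population selected in mice from a human lung adenocarcinoma (LUAD) line and labelled as a dormant metastatic derivative. Every group was this same cell population in medium with 2% serum. SB cells received 2.5 μM SB505124, which blocks the kinase of the type I TGFβ receptor, for 3 days. The other groups received 100 pM TGFβ, for 3 days or for 7 days. Each of the 3 groups held 2 libraries, called technical replicates in the study, so the errors below may leave out how separate cultures vary. SB cells were not sampled at 7 days, so TGFβ and time in culture cannot be told apart in either comparison of the 7-day cells. No group was left untreated, so lower RNA under TGFβ cannot be told from higher RNA under SB505124. Both comparisons with SB share the same SB libraries.

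Cells carry sensors for nucleic acid that appears in the wrong place. cGAS binds DNA in the cytosol and makes the dinucleotide cGAMP, which binds STING on the endoplasmic reticulum, while RIG-I and MDA5 bind viral or unedited double-stranded RNA and signal through MAVS on mitochondria. Both arms meet at the kinase TBK1, which phosphorylates the transcription factor IRF3 so that it switches on type I interferon and interferon-induced genes, among them several of the sensors. In tumor cells the pathway links damaged or misplaced DNA to recognition by NK cells and T cells.

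The libraries held between 34306283 and 36340734 normalized counts, and the reads behind a library were estimated at 32000000 to 40000000, a depth that covers counting error only. The labels were checked with 6 TGFβ response genes such as SMAD7 and PMEPA1, and 6 of 6 were higher than in SB at 3 days and at 7 days. Of 8 leukocyte markers, 7 had a mean under 10 normalized counts, and their sum without CD68, a lysosomal protein also found outside leukocytes, was 23 to 29 in SB, 10 to 15 at 3 days and 14 to 24 at 7 days. The epithelial keratins KRT8 and KRT18 were abundant in every library. Of 8 epithelial and lung markers, 6 were lower than in SB at 3 days and again 6 at 7 days, KRT18 among them. KRT7 was higher at both times, with log2 fold changes of 1.5 and 1.06. Of all genes tested, 14.0% were lower at 3 days and 26.9% at 7 days. In 2 respects libraries of the same group stood apart. For 6 interferon-induced genes, the median log2 difference of the second SB library from the first was 0.4, against -0.01 over all genes tested. The differences ran from -0.03 for IFIT3 to 1.74 for MX1, at 1799 against 537 normalized counts. Of the 6 genes 1 exceeded 0.5, beside 8.45% of all genes. The difference between the libraries of a group also followed the GC content of the genes. Its Spearman correlation across 13027 genes was -0.63 at 3 days and 0.62 at 7 days, genes not being independent replicates. For the sensing genes, values without a library or after a correction for GC content are given below where they change a call.

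At 3 days of TGFβ, TMEM173 and IFIH1 were lower than in SB, and the other sensing genes did not pass the test. At 7 days, TMEM173, MB21D1, DDX58, IFIH1, IRF3 and TREX1 were lower than in SB, MAVS was higher, and TBK1, IFI16 and ENPP1 did not pass. Between 3 days and 7 days of TGFβ, MAVS alone passed, and was higher at 7 days. A gene passed where the adjusted p of limma (Benjamini-Hochberg over all genes tested) was under 0.05, and log2 fold changes are on the scale of log2(normalized count + 1).

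These counts have to be read against a large response of the whole transcriptome. In TGFβ 3 days against SB, 2 of the 10 sensing genes passed, beside 29.0% of all genes tested (14.0% lower). In TGFβ 7 days against SB, 7 of 10 passed, 6 of them lower and 1 higher, beside 54.5% of all genes (26.9% lower and 27.7% higher). In 7 days against 3 days, 1 of 10 passed, beside 33.2% of all genes (17.0% higher). The median log2 fold change of the 10 genes was -0.32 at 3 days and -0.55 at 7 days against SB, whereas the median of all genes tested was -0.02 and -0.00081. Between 7 days and 3 days the medians were -0.05 for the sensing genes and 0.02 for all genes. Groups that do not overlap were common in these data. At 3 days both TGFβ libraries lay below both SB libraries for 5 of the 10 genes (32.9% of all genes tested) and above them for 1 (30.3%). At 7 days they lay below for 6 (38.6%) and above for 2 (38.9%). The 7-day libraries lay below both 3-day libraries for 2 genes (32.9%) and above them for 3 (36.2%).

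**Figure D1:**
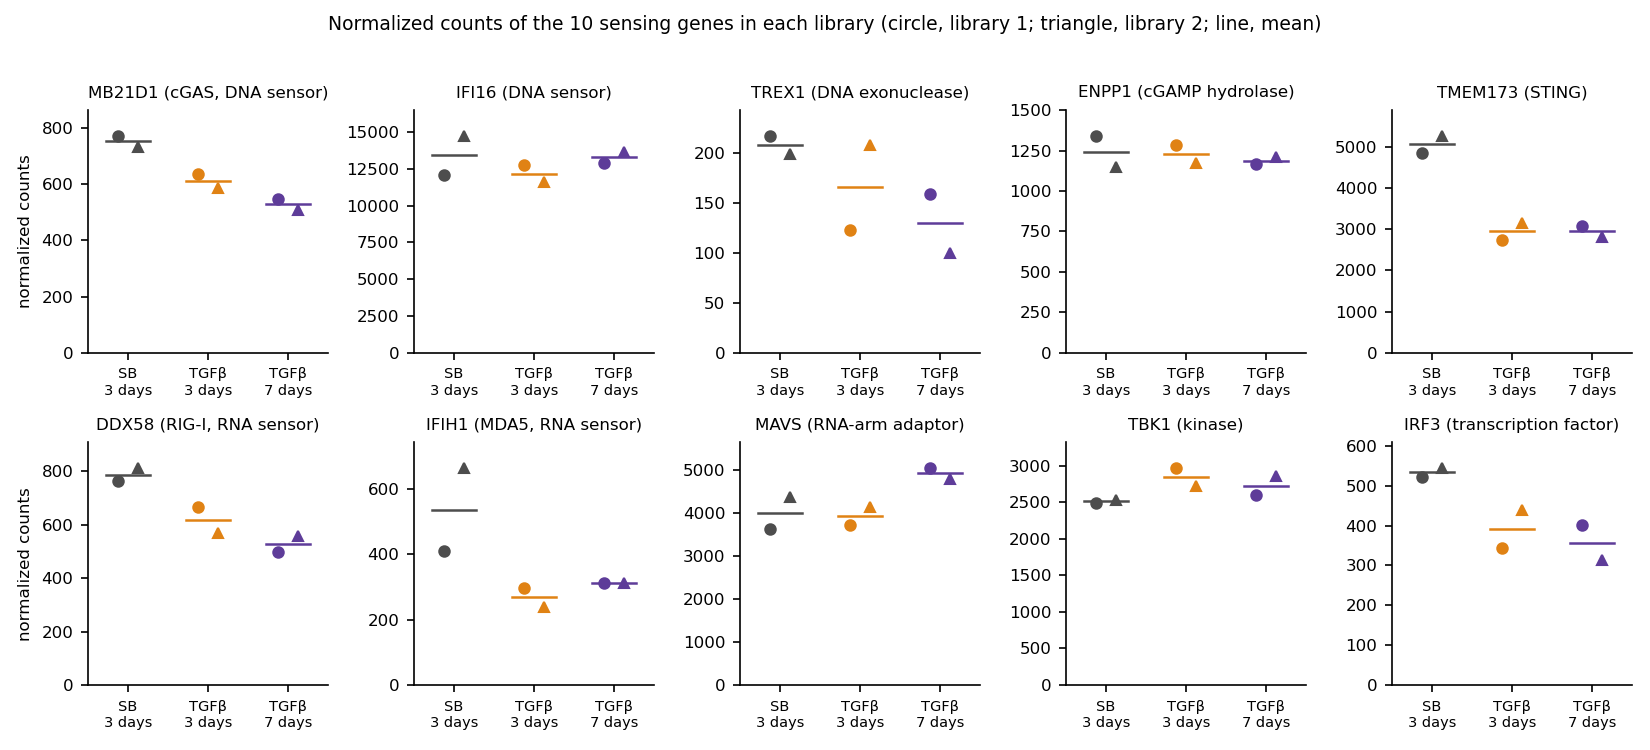
Normalized counts (vertical axes, each from 0) of the 10 sensing genes in each of the 6 libraries, with circles for library 1, triangles for library 2 and a line at the mean of each group. TMEM173 sits at means of 5057 in SB and 2944.5 and 2946 in the TGFβ groups, IFI16 and ENPP1 overlap between SB and TGFβ, and MAVS is highest at 7 days.

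**Figure D2:**
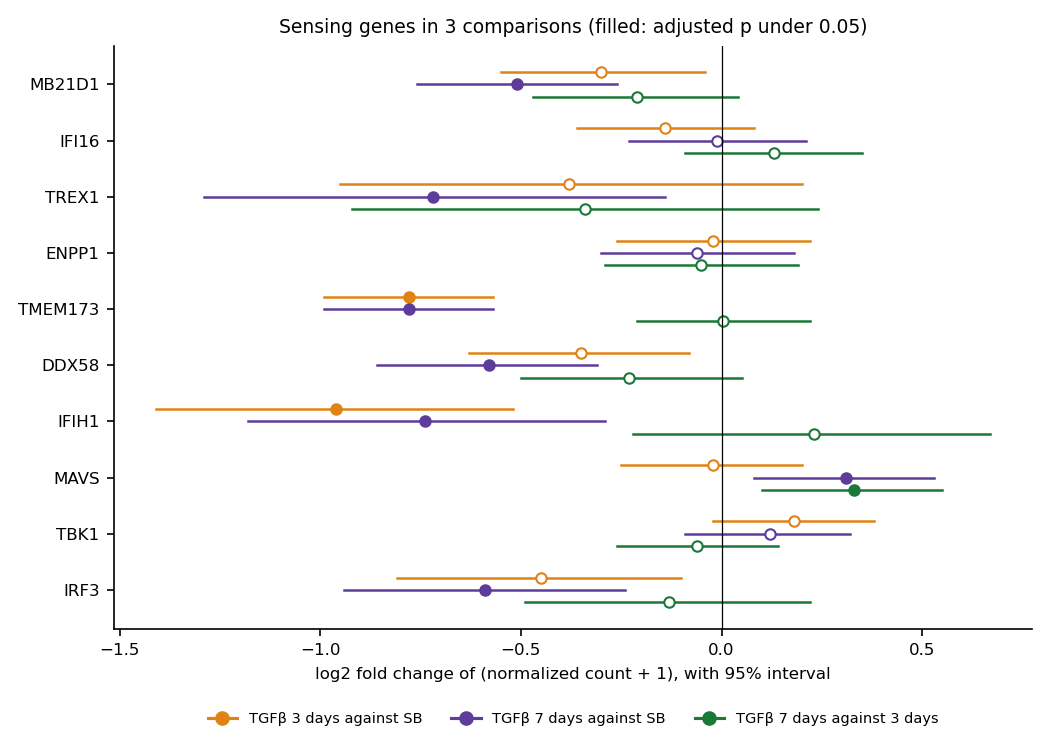
Log2 fold changes with 95% intervals (horizontal axis) of the 10 sensing genes in the 3 comparisons, with filled points where the limma adjusted p was under 0.05. The TMEM173 points of both comparisons with SB lie at -0.78, and 3 genes, TBK1, IFI16 and ENPP1, have open points in every comparison.

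TMEM173 encodes STING, the adaptor that binds cGAMP and recruits TBK1. It lies at chr5:138855118-138862520 on the minus strand of GRCh37. Its normalized counts were 4853 and 5261 in the SB libraries, 2746 and 3143 after 3 days of TGFβ, and 3075 and 2817 after 7 days. Every TGFβ library was below every SB library, and the TGFβ groups overlapped each other. The mean was 5057 ± 288.5 in SB, 2944.5 ± 280.7 after 3 days and 2946 ± 182.4 after 7 days (SD, n = 2 libraries each). The log2 fold change was -0.78 (SE 0.10) in both comparisons with SB, with limma adjusted p of 8.8e-05 at 3 days and 3.9e-05 at 7 days. From 3 days to 7 days the log2 difference was 0.0026, with a 95% interval of -0.21 to 0.22 and an adjusted p of 0.986, so a further change of the size seen at 3 days lay outside the interval. TMEM173 passed against SB in all 12 alternative settings and in all 6 fits that left out a library, at both times.

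MB21D1 encodes cGAS, the DNA sensor and cGAMP synthase (chr6:74123238-74162020, minus strand, GRCh37). It was counted 771 and 732 times in SB, 637 and 587 times at 3 days, and 546 and 509 times at 7 days, in normalized counts. The 3 groups did not overlap, with SB highest and 7 days lowest. The log2 fold change against SB was -0.30 (SE 0.12) at 3 days, where the limma adjusted p of 0.0765 missed the threshold, and -0.51 (SE 0.12) at 7 days with an adjusted p of 0.00285. The step from 3 days to 7 days was -0.21 and did not pass (adjusted p = 0.179). The 7-day call held in all 12 alternatives and in all 6 fits without a library.

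IFI16 encodes a DNA-binding protein of the nucleus and cytosol that cooperates with STING (chr1:158969758-159024945, plus strand). Its normalized counts were 12083 and 14724 in SB, 12722 and 11579 at 3 days, and 12919 and 13656 at 7 days. The SB libraries spanned most of the range of the others. The log2 difference from SB was -0.14 at 3 days (95% interval -0.36 to 0.08) and -0.01 at 7 days (-0.23 to 0.21), with limma adjusted p of 0.34 and 0.963. Without the first SB library the 3-day difference was -0.28 and passed (adjusted p = 0.0466), and without the second it was 0.00644 (adjusted p = 0.967). A negative difference as large as that of TMEM173 lay outside both intervals. At 7 days the sign was positive under upper quartile scaling and under a correction for GC content and length.

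TREX1 encodes the exonuclease that degrades cytosolic DNA and so limits the input to cGAS (chr3:48507210-48509044, plus strand). It had 217 and 199 normalized counts in SB, 123 and 208 at 3 days, and 159 and 100 at 7 days. The 3-day libraries overlapped SB, while both 7-day libraries lay below it. TREX1 differed by -0.38 (SE 0.26) on the log2 scale at 3 days, with an adjusted p of 0.317, and -0.72 (SE 0.26) at 7 days, with an adjusted p of 0.0372 (limma). The 7-day call was lost without the first SB library (-0.65, adjusted p = 0.147), without the second (-0.78, adjusted p = 0.0837) and without the second 7-day library (-0.38, adjusted p = 0.319). In the annotation used here, all exonic bases of TREX1 also lie in exons of ATRIP on the same strand. The annotation release behind the deposited counts was not given, so how reads there were assigned is not known. ATRIP itself was lower at 7 days by a log2 difference of -0.80 (adjusted p = 0.000262).

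ENPP1 encodes the ectoenzyme that hydrolyses cGAMP outside the cell (chr6:132129156-132216295, plus strand). Its normalized counts were 1340 and 1147 in SB, 1284 and 1171 at 3 days, and 1167 and 1209 at 7 days. The 3 groups overlapped. The log2 differences from SB were -0.02 (95% interval -0.26 to 0.22) and -0.06 (-0.30 to 0.18), with limma adjusted p of 0.931 and 0.656.

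DDX58 encodes RIG-I, the helicase that binds RNA ends bearing a triphosphate (chr9:32455300-32526206, minus strand, GRCh37). It had 764 and 811 normalized counts in SB, 666 and 570 at 3 days, and 497 and 556 at 7 days. As for MB21D1, the 3 groups did not overlap and the 7-day group was lowest. The log2 fold change against SB was -0.35 (SE 0.13) at 3 days, with a limma adjusted p of 0.0536 just outside the threshold, and -0.58 (SE 0.13) at 7 days, with an adjusted p of 0.00201. The 7-day call held in all 12 alternatives and in all 6 fits without a library. In the annotation used here, 43.2% of the exonic length of DDX58 is shared with an unnamed gene on the same strand that is no row of the table.

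IFIH1 encodes MDA5, the sensor of long double-stranded RNA (chr2:163123584-163175194, minus strand, GRCh37). Its normalized counts were 410 and 663 in SB, 297 and 240 at 3 days, and 312 and 313 at 7 days. All TGFβ libraries lay below both SB libraries, and of the 3 groups the SB libraries were the farthest apart. The log2 fold change was -0.96 (SE 0.20) at 3 days with an adjusted p of 0.00384, and -0.74 (SE 0.20) at 7 days with an adjusted p of 0.00879 (limma). IFIH1 was 0.69 higher on the log2 scale in the second SB library than in the first, the only sensing gene with a difference over 0.5 there. Without that library IFIH1 differed by -0.62 at 3 days, with an adjusted p of 0.0283, and by -0.39 at 7 days, where it no longer passed, with an adjusted p of 0.0815. From 3 days to 7 days the difference was 0.23 and did not pass (adjusted p = 0.418).

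Several of the sensor genes are themselves switched on by interferon through IRF factors, so the letters of those sites were looked for in the 250 bases before the start of each gene, in the RefSeq promoters of GRCh38.p14. These had an entry for 7 of the 10 sensing genes, with 8 windows in all since IFI16 has 2 starts. Entries were not used here for TMEM173, MB21D1 and IRF3. On both strands, the core of the interferon-stimulated response element, GAAA, any 2 bases and GAAA again, was present in 3.02% of 35116 promoter windows, and the shorter IRF element, AANNGAAA, which every core contains, in 20.3%. The core was found only in the IFIH1 window, with 3 matches that partly overlap. The shorter element was found in the windows of IFIH1 (4 matches), DDX58 (3 matches) and IFI16 (1 match and 2 matches). The windows of these genes that hold matches are shown because they are the sensors with interferon-type sites, written 5′ to 3′ on the strand of the gene with the matched bases in capitals, matches on the opposite strand reading TTTC.
IFIH1, positions -25 to -12 from the start, chr2:162318685-162318727, minus strand: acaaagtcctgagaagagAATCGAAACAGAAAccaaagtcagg
IFIH1, positions -159 to -144 from the start, chr2:162318810-162318861, minus strand: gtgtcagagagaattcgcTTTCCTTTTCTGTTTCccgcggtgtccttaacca
DDX58, positions -202 to -195 from the start, chr9:32526373-32526416, minus strand: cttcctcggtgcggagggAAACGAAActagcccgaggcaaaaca
DDX58, positions -143 to -129 from the start, chr9:32526307-32526357, minus strand: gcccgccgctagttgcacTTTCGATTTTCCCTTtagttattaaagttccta
IFI16, positions -58 to -46 from the second start, chr1:159009831-159009879, plus strand: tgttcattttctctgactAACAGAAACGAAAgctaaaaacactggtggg
IFI16, positions -128 to -121 from the first start, chr1:159008845-159008888, plus strand: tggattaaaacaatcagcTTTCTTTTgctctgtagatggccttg
A match of letters is a description and not a measured binding site. Among these 3 genes the data differed, since IFIH1 and DDX58 were lower than in SB at 7 days and IFI16 did not pass at either time. The SMAD box CAGAC, bound by the SMAD proteins that carry the TGFβ signal, was present in 38.0% of all windows and in those of TREX1 and ENPP1 (1 match each) and TBK1 (2 matches). The MAVS window held none of the 3 motifs.

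MAVS encodes the mitochondrial adaptor of RIG-I and MDA5 (chr20:3827446-3856770, plus strand). Its normalized counts were 3625 and 4363 in SB, 3722 and 4129 at 3 days, and 5037 and 4795 at 7 days. The 3-day libraries lay within the SB range, and both 7-day libraries lay above all others. Against SB, MAVS differed by -0.02 at 3 days, with an adjusted p of 0.903, and by 0.31 (SE 0.10) at 7 days, with an adjusted p of 0.0248. Against 3 days of TGFβ, the 7-day level was 0.33 higher (SE 0.10, limma adjusted p = 0.0301). MAVS has the longest reference transcript of the 10 genes, 11731 bases against a median of 3820 over the genes tested. When the GC content and length of transcripts were corrected for in each library, MAVS differed from SB by -0.19 at 3 days, with an adjusted p of 0.0142, and by -0.0801 at 7 days, with an adjusted p of 0.177, so the higher level at 7 days was not seen on that scale. The uncorrected difference from SB at 7 days was 0.17 without the first SB library (adjusted p = 0.176), 0.27 without the first 7-day library (adjusted p = 0.14) and 0.34 without the second (adjusted p = 0.0709), none of which passed.

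TBK1 encodes the kinase shared by both arms (chr12:64845870-64895894, plus strand). It had 2493 and 2533 normalized counts in SB, 2967 and 2722 at 3 days, and 2595 and 2862 at 7 days. Every TGFβ library was above the SB libraries, by less than the test could separate from the spread. TBK1 differed by 0.18 on the log2 scale at 3 days (95% interval -0.02 to 0.38, limma adjusted p = 0.175) and by 0.12 at 7 days (-0.09 to 0.32, adjusted p = 0.304).

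IRF3 encodes the transcription factor that TBK1 phosphorylates (chr19:50162826-50169132, minus strand). Its normalized counts were 523 and 544 in SB, 344 and 440 at 3 days, and 401 and 313 at 7 days. All TGFβ libraries lay below SB, and the TGFβ groups overlapped. On the log2 scale IRF3 differed by -0.45 (SE 0.16) at 3 days with an adjusted p of 0.0533, and -0.59 (SE 0.16) at 7 days with an adjusted p of 0.0085 (limma). The 3-day difference was -0.63 without the second 3-day library, which changed the call, and -0.28 without the first. The 7-day call was lost without the second 7-day library (-0.41, adjusted p = 0.111). BCL2L12 overlaps 19.3% of the exonic length of IRF3 on the opposite strand, and the library kit does not keep the strand. Its own log2 difference from SB at 7 days was -0.61 (adjusted p = 0.016).

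Per kilobase of exon, the order of the mean levels over the 6 libraries was IFI16 (2446 normalized counts per kilobase), TMEM173 (761), MAVS (363), TBK1 (183), MB21D1 (151), TREX1 (116), IRF3 (113), ENPP1 (107), IFIH1 (71.3) and DDX58 (62.3). On these lengths IFI16, TMEM173 and MAVS each stood apart from their neighbours in every library, while from TBK1 downward the ranges of neighbouring genes overlapped. The length was that of all annotated exons of a gene joined, 14716 bases for TBK1 against 5944 for its longest transcript. For MAVS these lengths were 11771 and 11731 bases. The place of TBK1 below MAVS, and the order of the lower genes, therefore depend on the length used. The per-kilobase level of TMEM173 was 1054 in SB and 614 in each TGFβ group, that of MAVS 339 in SB and 418 at 7 days. These levels per kilobase were not tested against each other.

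Ratios of 2 genes within a library do not depend on the scaling of that library, and are given without a test. TMEM173 over TBK1 was 1.95 and 2.08 in SB, 0.926 and 1.15 at 3 days, and 1.18 and 0.984 at 7 days. This ratio was lower in every TGFβ library than in SB, and the TGFβ groups overlapped. TMEM173 over MAVS was 1.34 and 1.21 in SB, 0.738 and 0.761 at 3 days, and 0.61 and 0.587 at 7 days, with no overlap between any of the groups. On the RNA side, DDX58 over MAVS was 0.211 and 0.186 in SB and 0.0987 and 0.116 at 7 days. IFIH1 over MAVS went from 0.113 and 0.152 to 0.0619 and 0.0653. IRF3 over TBK1 was 0.21 and 0.215 in SB and between 0.109 and 0.162 in the TGFβ libraries. MB21D1 over TREX1, the cGAMP synthase against the nuclease that removes its ligand, overlapped among all 3 groups. DDX58 over IFIH1, the 2 RNA sensors, was 1.86 and 1.22 in SB, 2.24 and 2.38 at 3 days, and 1.59 and 1.78 at 7 days, so it was higher at 3 days than in SB and overlapped SB at 7 days.

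**Figure D3:**
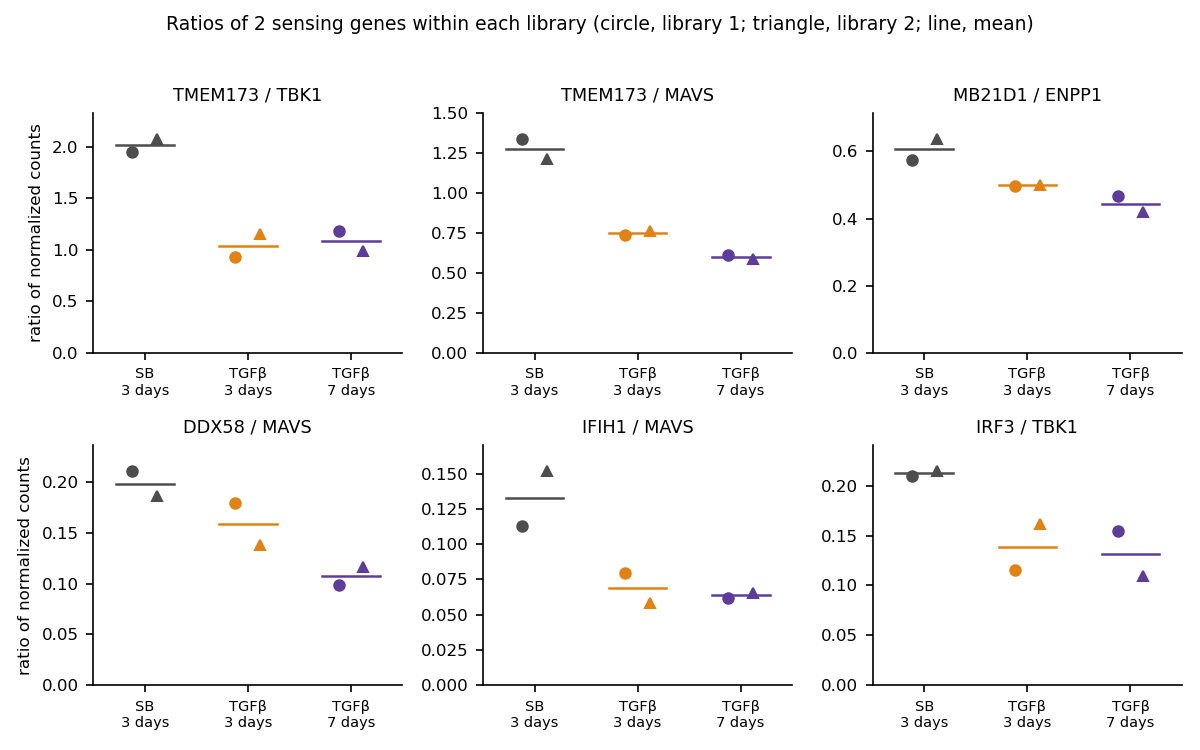
Ratios of the normalized counts of 2 sensing genes within each library (vertical axes, each from 0), with circles for library 1, triangles for library 2 and a line at the group mean. The 6 of 8 ratios drawn are those lower in every TGFβ library than in every SB library, the other two being DDX58 over IFIH1 and MB21D1 over TREX1, and those over MAVS at 7 days also hold the higher MAVS count, which was not seen after the correction for GC content and length.

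The correction for GC content and transcript length could be made for 13027 genes, 90.5% of those tested, and for all 10 sensing genes. TREX1 (62.83% GC), IRF3 (59.01%) and TMEM173 (56.84%) were the richest in GC and TBK1 (36.1%) the poorest, against a median of 47.86%. After the correction 6 of the 10 genes passed at 3 days against SB, since MB21D1, DDX58, IRF3 and MAVS were then also lower. Their log2 fold changes were -0.30, -0.39, -0.39 and -0.19 in that order, with limma adjusted p of 0.0312, 0.00726, 0.0246 and 0.0142. At 7 days 6 passed, all lower. Of all 13027 genes, 5242 passed on that scale at 3 days (2728 lower) and 8186 at 7 days (4089 lower). TMEM173 moved from -0.78 to -0.73 at 3 days and stayed at -0.78 at 7 days on the log2 scale. Which of the scales is closer to the RNA content of the cells was not tested.

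**Figure D4:**
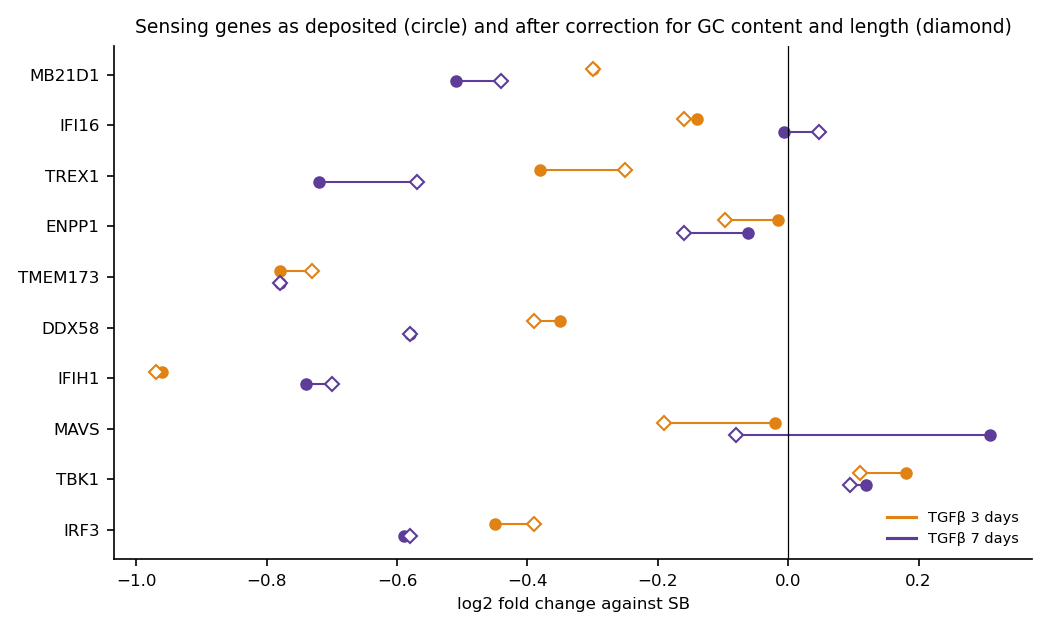
Log2 fold changes against SB (horizontal axis) of the 10 sensing genes as deposited (circles) and after correction of each library for GC content and transcript length (diamonds), at 3 days (orange) and 7 days (purple). MAVS at 7 days moves from 0.31 to -0.0801, whereas TMEM173, DDX58 and IFIH1 keep values near their circles.

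The wider pathway was read from 6 further lists with 66 tested genes, of which 6 were higher and 19 lower at 3 days against SB, 10 higher and 25 lower at 7 days, and 8 higher and 11 lower at 7 days against 3 days. Their median log2 fold change was -0.10 at 3 days and -0.25 at 7 days against SB. Called genes were 29.0% of all genes at 3 days against SB (14.0% lower) and 54.5% at 7 days against SB (27.7% higher and 26.9% lower). Between 7 days and 3 days they were 33.2% (17.0% higher). The counts of the single lists below have to be read against these shares.

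Among 10 enzymes and carriers that act on nucleic acid ligands or on cGAMP, 1 was higher and 4 lower at 3 days, and 2 were higher and 5 lower at 7 days. ENPP3, which like ENPP1 hydrolyses cGAMP, had 842 and 1142 normalized counts in SB, 266 and 243 at 3 days, and 339 and 384 at 7 days (log2 fold change at 7 days -1.44, limma adjusted p = 1.41e-05). ENPP1 itself overlapped among the groups. SLC19A1, the folate carrier that also imports cGAMP, was lower at 7 days (-1.43), whereas LRRC8A, a channel subunit that also passes cGAMP, was higher (0.76). SAMHD1 (-1.08), which hydrolyses deoxynucleotides, and RNASEH2A (-1.04), which removes ribonucleotides from DNA, were lower at 7 days.

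Of 11 tested proteins that hold, move or modify STING or cGAS, 2 were higher and 1 lower at 3 days and 3 were higher and 2 lower at 7 days. STIM1, which retains STING at the endoplasmic reticulum, was lower with TMEM173, at 1472 and 1475 normalized counts in SB, 1034 and 1066 at 3 days, and 1043 and 1052 at 7 days (log2 fold change -0.49 in both, adjusted p = 0.00253 and 0.00107). YIPF5, needed for STING to leave the endoplasmic reticulum, was higher than in SB by 0.66 at 7 days. The ubiquitin ligases TRIM32 (1.04) and TRIM56 (0.59), which modify STING, were higher at 7 days. BANF1, a DNA-binding protein that competes with cGAS in the nucleus, was lower (-0.49).

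Among 9 tested partners of RIG-I, MDA5 and MAVS, 3 were lower at 3 days, and 4 were lower and 1 higher at 7 days. TRIM25, the ubiquitin ligase of RIG-I, was the strongest of these by log2 fold change among genes with a mean of at least 100. It went from 6141 and 7504 normalized counts in SB to 3992 and 3949 at 3 days and 2837 and 2919 at 7 days, a log2 fold change of -0.77 and then -1.24 (adjusted p = 1.12e-06, limma). USP15 (-0.40), DDX60 (-0.39) and TOMM70A (-0.35), an import receptor that binds MAVS, were also lower at 7 days, and RNF135, another ubiquitin ligase of RIG-I, was higher (0.36, adjusted p = 0.0422).

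Of 15 kinases, adaptors and transcription factors downstream, 10 did not pass at 7 days against SB. The other 5 were TRAF2 (-0.77) and NFKB1 (-0.44), which were lower, and OPTN (0.71), TANK (0.67) and TRAF6 (0.58), which were higher. OPTN and TANK bind TBK1. Of 15 other sensors of nucleic acid that were tested, 6 were lower at 7 days. AIM2 (-0.53), which binds cytosolic DNA to start an inflammasome, XRCC6 (-0.58), EIF2AK2 (-0.51) and OAS3 (-1.08) were lower. OAS3 had 4044 and 7243 normalized counts in SB, and its 7-day value was -0.66 without the second SB library and -1.50 without the first, both past the threshold (limma adjusted p = 0.000435 and 3.24e-06).

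Interferon RNA itself was at or near 0. IFNB1 was listed at 0 in 5 libraries and at 2 in the second SB library, IFNL1 and IFNL2 were listed at 0 in every library, and CXCL10 and CCL5 reached at most 2 normalized counts. All 6 genes of this list whose mean reached 10, all switched on by IRF3 or interferon, were lower than in SB at both times. Of all genes tested, 14.0% were lower at 3 days and 26.9% at 7 days. The median log2 difference of the 6 genes was -0.94 at 3 days and -1.26 at 7 days, against -0.02 and -0.00081 over all genes. This list was chosen with earlier results of these data known. IFIT2, an RNA-binding protein, went from 937 and 1216 normalized counts in SB to 574 and 478 at 3 days and 364 and 396 at 7 days (log2 fold change at 7 days -1.49, limma adjusted p = 6.76e-06). OASL went from 425 and 493 to 231 and 214 and then 204 and 192 (-1.21 at 7 days), ISG15 from 395 and 541 to 223 and 292 and then 239 and 145 (-1.31), and IFIT3 from 2430 and 2384 to 1704 and 1414 and then 1203 and 1326 (-0.93). IFIT1 had 715 and 964 in SB and between 445 and 517 in the TGFβ libraries (-0.70 at 7 days). MX1 had 537 and 1799 in SB, 255 and 269 at 3 days, and 366 and 359 at 7 days (-1.44), so among these 6 genes the SB libraries differed most for MX1. Its 7-day value was -0.57 without the second SB library (limma adjusted p = 0.00898) and -2.31 without the first (adjusted p = 2.18e-06). Without the second SB library, 5 of the 6 were lower at 3 days, ISG15 being lost with an adjusted p of 0.139, and 6 of 6 at 7 days. Whether the interferon-induced RNA of the SB libraries has a part in the values of IFIH1 was not tested.

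**Figure D5:**
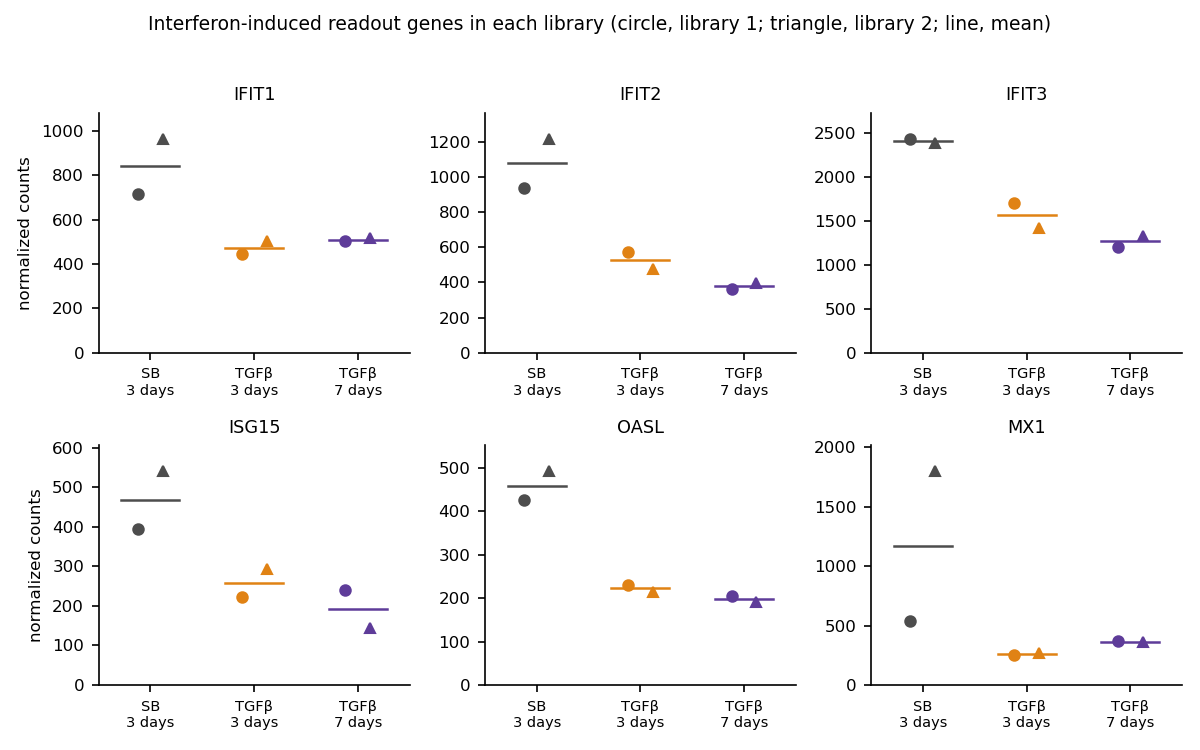
Normalized counts (vertical axes, each from 0) of 6 genes that IRF3 or interferon switch on, with circles for library 1, triangles for library 2 and a line at the group mean. Every TGFβ library is below every SB library for all 6 genes, and the SB libraries are far apart for MX1, at 537 and 1799.

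To see which genes share the pattern of a sensor, the log2 values of the 11388 other genes whose mean reached 100 were compared over the 6 libraries by Pearson's r, as a description. The genes most like TMEM173 were UBE2O (r = 0.9957), GPANK1 (0.9950) and EMC9 (0.9950). UBE2O had 2409 and 2642 normalized counts in SB and between 1294 and 1591 in the TGFβ libraries. The genes most like MB21D1 were NUDCD2 (0.9949), MCM3 (0.9935), a subunit of the replicative helicase, and GSTO2 (0.9923), and those most like DDX58 were CKAP5 (0.9985), FBXO45 (0.9969) and PPP2R5E (0.9958). With 6 points in 3 groups such values were common, since 303 genes had an r over 0.95 with TMEM173, 546 with MB21D1 and 297 with DDX58.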

How the data were processed

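PolyA RNA-seq libraries of H2087-LCC cells (TruSeq RNA v2, paired reads of 50 bases) were analyzed in 3 groups of 2. The authors mapped reads to hg19 with STAR, assigned unique reads to genes with HTSeq 0.6.1p1 and normalized by library size (the submitters' processing notes name DESeq2 3.4). The annotation release was not given in the sources used here. The deposited values are a score: normalized counts rounded to whole numbers, which cannot be turned back into reads for a count test.

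Values were transformed as log2(value + 1). Genes whose mean reached 10 (14395) entered one fit of the 6 libraries with limma 3.58.1 in R 4.3.3 (group only, 3 residual degrees of freedom, empirical Bayes with a trend), adjusted by Benjamini-Hochberg at 0.05 for each comparison. A permutation of 2 against 2 libraries cannot give a two-sided exact p under 0.333, so none is reported. Reads were estimated from gaps among the low values of each library. Lengths, overlaps and GRCh37 coordinates came from GENCODE v44 lifted to GRCh37, and promoters from RefSeq GRCh38.p14. Figures were drawn with matplotlib 3.10.9.

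The members and lists were chosen with earlier results of these data known, and support nothing by themselves. All 10 members were named. Of each further list, up to 5 genes were named, those with the largest change at 7 days against SB among called genes whose mean reached 100, plus the interferon readouts and the 3 genes most like TMEM173, MB21D1 and DDX58. A gene that this rule names is not reported here. Alternatives were the pseudocount, the filter, 3 scalings, no trend, the 4 libraries compared alone, a replicate block and each library left out. A crossed block, a correction for GC content and length by loess, and the interferon readouts without the second SB library were chosen after seeing the data. The crossed block was the replicate block with the numbers of the 7-day libraries swapped. In a test on simulated data for TGFβ 7 days against SB (14338 genes), 176 of 199 genes changed 2-fold were called, with 13 unchanged genes. The simulated errors were independent and no smaller change was simulated. This test therefore does not give the share found of changes under 2-fold, such as those of the sensing genes.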

Additional observations from a re-analysis of the deposited data

Results flagged for a closer look

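On the log2 scale, the difference of MAVS from SB was 0.33 higher at 7 days of TGFβ than at 3 days (SE 0.10, 95% interval 0.10 to 0.55, limma adjusted p = 0.0301). Both 7-day libraries, at 5037 and 4795 normalized counts, lay above both 3-day libraries, at 3722 and 4129. Since the SB libraries are shared, the 0.33 is the direct difference between 7 days and 3 days of TGFβ. These groups also differ in time in culture. After correction for GC content and transcript length the difference was 0.11 (adjusted p = 0.0951). It was 0.25 without the first 3-day library (adjusted p = 0.191), 0.29 without the first 7-day library (adjusted p = 0.17) and 0.36 without the second (adjusted p = 0.0991). No other sensing gene passed the test of this difference.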

How the results depend on the processing

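Against SB at 3 days, where 2 sensing genes passed, 1 passed without the filter on low values (IFIH1 was lost), 5 with equal library totals, 5 with the crossed block and 6 with the correction for GC content and length, the added genes being MB21D1, IRF3 and DDX58 and, for the last, MAVS. Against SB at 7 days, 4 passed instead of 7 without the filter and 4 without the trend, TREX1, IFIH1 and MAVS being lost in both, and 4 to 7 with 1 library left out, fewest without the second 7-day library. Between 7 days and 3 days the count of 1 (MAVS) went to 0 without the filter, 0 without the trend and 0 with the GC and length correction (limma, with 1, 1 and 0 genes at an unadjusted p under 0.05), and to 0 or 1 with 1 library left out. A group left with 1 library was assumed to vary like the others. Of the 66 further pathway genes, 25, 35 and 19 passed in the 3 comparisons. At 3 days this was 15 without the filter, 14 without the trend and 17 to 25 with 1 library left out. At 7 days against SB it was 30 to 37 with 1 library left out, and between 7 days and 3 days 12 without the filter, 9 without the trend and 6 to 26 with 1 library left out, fewest without the second 7-day library. With the GC and length correction the counts were 33, 45 and 28, and with the crossed block 30, 44 and 26. Calls over all genes rose as well, from 4170, 7851 and 4775 of 14395 in the main fit. They were 5242, 8186 and 5897 of 13027 with the correction, and 5404, 8763 and 5972 of 14395 with the crossed block. With equal library totals 4371 of 14382 genes passed at 3 days against SB. Without the filter 19977 genes were tested, of which 2846 passed at 3 days and 7435 at 7 days against SB. Without the trend 2966 and 7084 of 14395 passed in these comparisons. Over all genes, 4775 passed between 7 days and 3 days, against 3042 without the filter and 3122 without the trend, and 2294 without the second 7-day library.

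The sign changed for IFI16 at 7 days against SB under upper quartile scaling (0.0193) and the GC and length correction (0.0469), for MAVS there under that correction (-0.0801), and for TMEM173 between 7 days and 3 days under median-of-ratios scaling (-0.0138) and that correction (-0.0508). With 1 library left out, log2 differences from SB at 3 days ran from -0.75 to 0.00134 for TREX1, -0.28 to 0.00644 for IFI16, -0.13 to 0.0962 for ENPP1 and -0.15 to 0.11 for MAVS. At 7 days against SB they ran from -0.15 to 0.14 for IFI16 and -0.17 to 0.0504 for ENPP1. Between 7 days and 3 days they ran from -0.0947 to 0.10 for TMEM173, -0.13 to 0.0102 for TBK1, -0.31 to 0.0435 for IRF3, -0.72 to 0.0359 for TREX1 and -0.11 to 0.0206 for ENPP1. The cause of these changes was not tested. With the replicate number as a block, 3, 7 and 1 sensing genes passed (IRF3 was added at 3 days) and no other call changed. The replicate differences of 11389 genes correlated by 0.21 between SB and 3 days, -0.13 between SB and 7 days and -0.65 between 3 days and 7 days. These differences also followed GC content, with opposite signs at 3 days (-0.63) and 7 days (0.62). The correlations therefore cannot decide whether libraries with the same number belong together. The 2 libraries per group limit the precision of every value, and TREX1, with 100 to 217 normalized counts, was the least precise of the 10 genes.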

Other observations

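Among the other sensors that interferon induces, OAS1 and DHX58 were lower at 3 days than in SB and higher at 7 days than at 3 days. They were picked out after their values were seen. OAS1, an oligoadenylate synthetase that double-stranded RNA activates, had 60 and 292 normalized counts in SB, 23 and 21 after 3 days of TGFβ, and 70 and 87 after 7 days. It was lower at 3 days than in SB (log2 fold change -2.54, SE 0.52, limma adjusted p = 0.00331) and higher at 7 days than at 3 days (1.78, adjusted p = 0.0218). DHX58, which encodes LGP2, the third RIG-I-like receptor, had 71 and 98 in SB, 33 and 45 at 3 days, and 79 and 60 at 7 days, with differences of -1.09 (adjusted p = 0.00943) and 0.82 (adjusted p = 0.0347). At 3 days both genes lay below SB without overlap, and at 7 days both overlapped SB.

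These values depend on which SB library is used. Without the second SB library the 3-day difference was -1.41 for OAS1 (adjusted p = 0.00584) and -0.86 for DHX58 (adjusted p = 0.0629). OAS2 had 163 and 633 normalized counts in SB, 150 and 137 at 3 days, and 241 and 222 at 7 days. Its 7-day difference from SB was -0.47 with both SB libraries (adjusted p = 0.374), -1.45 without the first (adjusted p = 0.000138) and 0.50 without the second (adjusted p = 0.0387). The cause of the difference between the SB libraries was not tested.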
